A study of Mus musculus with 9 samples.

Results

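The olfactory receptor genes of mouse chromosomes 10, 11 and 17 were examined for CpG methylation in embryonic stem cells (ESCs) that were wild type (WT) or lacked *Dnmt3a* (3aKO) or *Dnmt3b* (3bKO). The genes were chosen by symbol and position only, as protein-coding genes of the mm9 annotation whose symbol starts with *Olfr* and that lie on these 3 chromosomes. They number 198 of the 14278 protein-coding genes analysed in WT, with 68 on chromosome 10, 81 on chromosome 11 and 49 on chromosome 17. All cells were J1 ESCs of strain 129S4/SvJae, grown on gelatin without feeder cells in medium with serum and LIF. WT cells carried both *Dnmt3* genes, 3aKO cells were Dnmt3a-/- and 3bKO cells were Dnmt3b-/-. Whole genome bisulfite sequencing (WGBS) was made from 3 libraries of each genotype, which the authors had pooled so that 1 CpG table per genotype remained. Each genotype therefore gives 1 pooled value for a gene, no test across replicates was possible, and the number of independent KO clones is not given in the sources used here.

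Olfactory receptors are G protein-coupled receptors of the sensory neurons of the nose, and their genes form the largest gene family of the mouse. Their coding sequence usually lies in a single exon, and the genes sit side by side in clusters, often with near-identical copies. An olfactory neuron expresses a single receptor gene from a single allele and keeps the others silent, and most other tissues do not use the family. DNMT3A and DNMT3B are the enzymes that place methyl groups on unmethylated CpGs, while DNMT1 copies existing marks after replication. Most mouse promoters lie in CpG islands that carry little methylation, whereas olfactory receptor genes are poor in CpGs and usually have no island at their start. Bisulfite reads cannot tell 5-methylcytosine from 5-hydroxymethylcytosine, and methylation is no measure of expression.

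The methylation level of a gene was the share of methylated reads among all reads of its CpGs, for CpGs read at least 3 times in each genotype and genes with at least 5 such CpGs. Levels were taken over the gene body and over the 1 kb on both sides of the annotated transcription start site (TSS window). A median gene spans 964.5 bp, so that the TSS window of most genes covers the body too. Of the 198 genes, 161 were measured in the body, 182 in the TSS window and 153 in both. The 8 genes measured in neither were *Olfr1354*, *Olfr775*, *Olfr813*, *Olfr814*, *Olfr815*, *Olfr822*, *Olfr382* and *Olfr393*. In the bodies, 2921 of 2967 reference CpGs (98.4%) were covered, at a median depth of 25 reads in WT, 24 in 3aKO and 23 in 3bKO ESCs. Intervals are 95% intervals of read shares and cover counting error only.

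The tables matched their labels at the deleted genes. Over 12 consecutive CpGs of *Dnmt3a* there were 0 reads in 3aKO, against mean depths of 31.4 in WT and 16.8 in 3bKO ESCs. Over 30 consecutive CpGs of *Dnmt3b* there were 0 reads in 3bKO, against 31.5 in WT and 26.4 in 3aKO ESCs. Of 8 markers of ESCs, *Pou5f1*, *Sox2*, *Klf4*, *Lin28a* and *L1td1* had TSS windows below 2% in WT. *Sall4* was at 5.61%, *Tcl1* at 78.6% and *Esrrb* at 92.7%.

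Olfactory receptor gene bodies were highly methylated in WT, lost a large part of their methylation in 3aKO and little in 3bKO ESCs. The median body level was 89.9% in WT, 56.7% in 3aKO and 83.8% in 3bKO ESCs. From the 10th to the 90th percentile, the genes ranged from 80.4% to 95.5% in WT, from 42.7% to 69.7% in 3aKO and from 68.8% to 91.3% in 3bKO ESCs. The level was lower than in WT in 161 of 161 bodies in 3aKO and in 142 of 161 in 3bKO ESCs, and the interval of the difference lay wholly below 0 in 159 and 100 of them. Over all protein-coding genes, 13871 of 13902 bodies were lower by value in 3aKO and 13549 of 13902 in 3bKO ESCs. Intervals below 0 were not counted for them. A difference of more than 20 percentage points, taken from the gene's value and not from its interval, was reached by 150 of 161 genes in 3aKO ESCs, and the whole interval lay beyond 20 points in 117. Over all protein-coding genes 91.6% passed this limit by value (12731 of 13902), a share near that of the family by value. How many of them passed it with the whole interval was not counted. In 3bKO ESCs 10 of 161 genes passed it, against 2.29% of all genes (318 of 13902). Genes with few CpGs passed it more often also outside the family: with 5 to 9 CpGs these were 7 of 76 olfactory receptor genes and 18 of 231 genes outside the family. The interval lay wholly beyond 20 points in 2 of these 10.

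**Figure D1:**
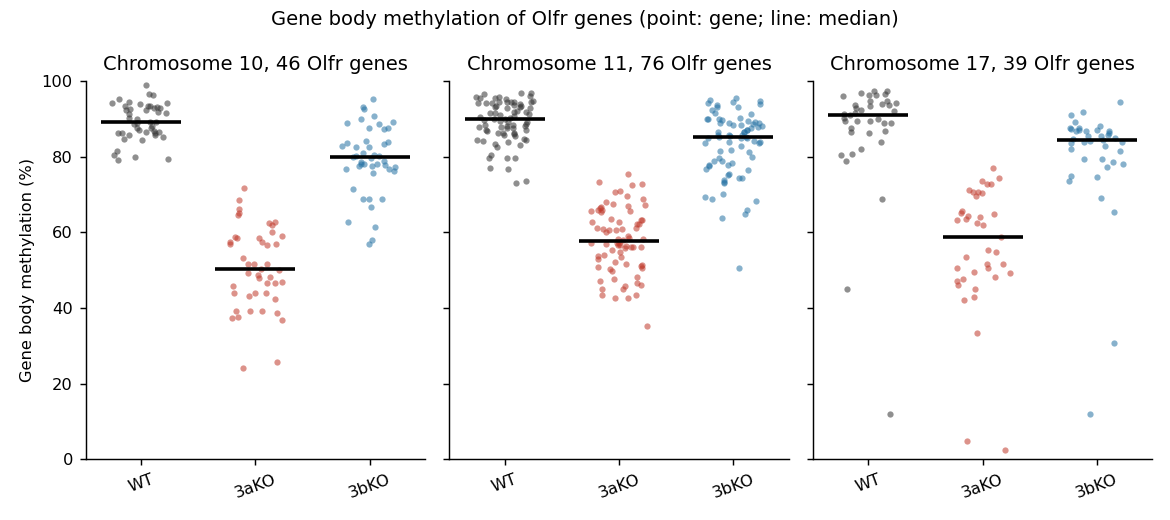
Gene body methylation in percent (vertical axis) of the 161 measured olfactory receptor genes in WT, 3aKO and 3bKO ESCs (horizontal axis), with 1 panel per chromosome, 1 point per gene and a line at the median. On all 3 chromosomes the WT and 3bKO medians lie at 79.9% or above and the 3aKO medians between 50.2% and 58.8%, and 2 genes of chromosome 17 lie below 50% in WT.

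The median difference from WT was -33.2 points in 3aKO and -6.64 points in 3bKO ESCs. Protein-coding genes outside the family had body medians of 83.2% in WT, 47.7% in 3aKO and 74.9% in 3bKO ESCs. The olfactory receptor genes thus lay 6.73 points above the other genes in WT, 8.95 points above in 3aKO and 8.94 points above in 3bKO ESCs. Genes with few CpGs in the body did not show this order throughout. With 5 to 9 CpGs, 231 genes outside the family had medians of 90.7%, 56.8% and 82.3%, against 89.7%, 55.9% and 84.0% for 76 olfactory receptor genes. The drop in 3aKO ESCs was of like size inside and outside the family, with a median of -32.8 points outside the family. The olfactory receptor genes kept a median of 62.7% of their WT level in 3aKO ESCs, and the other genes kept 58.4%. Set side by side, 3aKO was the lower of the KOs in 160 of 161 bodies, by a median of 25.6 points, much as outside the family, where it was lower in 13230 of 13350 bodies by a median of 25.05 points. The remaining body, named after its values were seen, was that of *Olfr99*, with 6 CpGs at 84.0% in WT, 70.3% in 3aKO and 69.0% in 3bKO ESCs.

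The 504 olfactory receptor genes of the other chromosomes analysed in WT had nearly the same levels as those of chromosomes 10, 11 and 17. The WT table ends on chromosome 4, and family members on chromosomes that it lacks were not measured. Their body medians were 90.9% in WT, 58.0% in 3aKO and 84.0% in 3bKO ESCs (391 genes measured). Of the 32 annotated *Olfr* pseudogenes of chromosomes 10, 11 and 17, which no longer encode a receptor, 20 were measured, with medians of 91.3%, 58.9% and 83.4% in the same order. All 20 measured pseudogenes were more than 20 points below WT in 3aKO ESCs, and 0 were in 3bKO ESCs. The other chemoreceptor genes, which encode vomeronasal, trace amine-associated and formyl peptide receptors, had pooled medians of 88.2%, 51.4% and 77.9% (101 genes measured). By family, the 53 measured *Vmn2r* genes were lowest at 86.4%, 49.1% and 74.1%. The 15 *Taar* genes, at 94.8%, 59.4% and 89.0%, lay above the olfactory receptor genes in every genotype. Measured *Vmn2r* bodies held a median of 79 CpGs, against 9 in *Taar* and 10 in the olfactory receptor genes. Genes outside the olfactory receptor family with 40 or more CpGs in the body had medians of 82.0%, 46.9% and 73.7%. The chemoreceptor families were not compared at like numbers of CpGs.

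The genes formed 10 clusters of at least 3 genes less than 500 kb apart, and only *Olfr1373* and *Olfr1371* on chromosome 11 lay outside them. Chromosome 10 had the lowest medians in both KOs, with 89.1% in WT, 50.2% in 3aKO and 79.9% in 3bKO ESCs over 46 genes. On chromosome 11 the medians were 89.9%, 57.6% and 85.2% over 76 genes, and on chromosome 17 they were 90.9%, 58.8% and 84.5% over 39 genes. More than 20 points were lost in 3aKO ESCs by 46 of 46 genes on chromosome 10, 71 of 76 on chromosome 11 and 33 of 39 on chromosome 17. In 3bKO ESCs 6 of 46, 2 of 76 and 2 of 39 genes passed this limit on chromosomes 10, 11 and 17. Measured bodies held medians of 7, 12 and 10 CpGs in the same order, and genes with few CpGs passed it more often. Within chromosomes, the 3aKO median of a cluster ranged from 50.0% in the 58-gene cluster of chromosome 10, which starts at *Olfr9*, to 63.5% in the 3-gene cluster of chromosome 17 that starts at *Olfr55*.

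**Figure D2:**
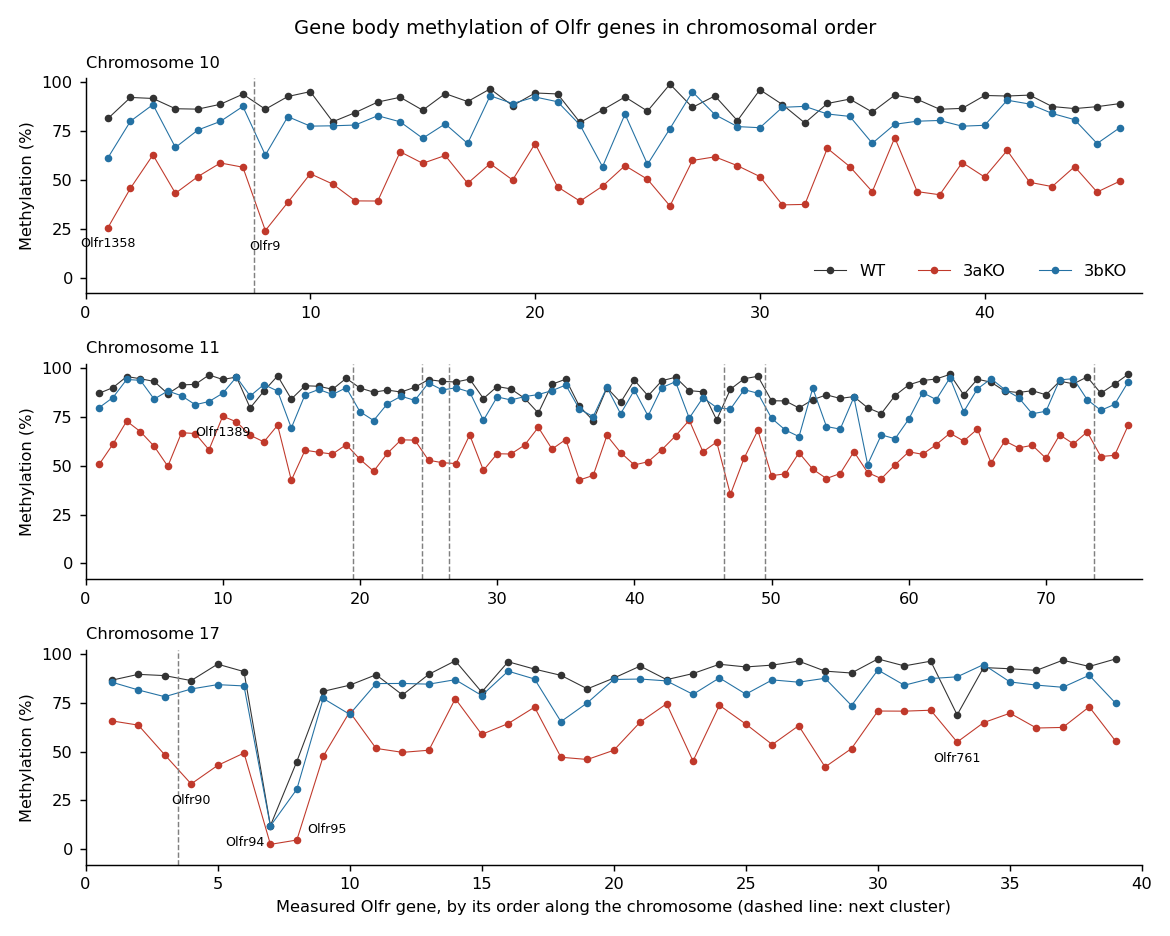
Gene body methylation in percent (vertical axis) of each measured olfactory receptor gene, placed by its rank along chromosomes 10, 11 and 17 (horizontal axis), with 1 line per genotype. Dashed lines mark where a cluster ends, and the pair between the closest dashed lines of chromosome 11 lies outside clusters. The 3aKO line runs below the 3bKO line at all genes but *Olfr99*, and *Olfr94* and *Olfr95* on chromosome 17 fall below their neighbours in all genotypes.

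At the TSS the family differed from other genes more than in the body. The median TSS window of the olfactory receptor genes was at 89.6% in WT, 54.6% in 3aKO and 81.4% in 3bKO ESCs, close to their bodies. Protein-coding genes outside the family had medians of 20.04%, 5.33% and 13.0%. The high level was shared by the other chemoreceptor genes, at 88.8%, 51.2% and 79.4%, and by the olfactory receptor genes of the other chromosomes, at 90.5%, 55.2% and 82.0%. Of 182 measured windows, 178 were more than 20 points below WT in 3aKO ESCs, against 44.4% of all protein-coding genes (6244 of 14078). The median window of all protein-coding genes was at 22.8% in WT, which left little room for such a drop. At like numbers of CpGs up to 39 the shares were closer. With 5 to 9 CpGs, 569 of 608 windows outside the family passed this limit, against 83 of 86 inside it. With 10 to 19 CpGs these were 1420 of 1495 and 70 of 70, and with 20 to 39 CpGs 2182 of 2434 and 21 of 21. From 40 CpGs on they were 1452 of 8893 and 4 of 5. In 3bKO ESCs 13 of 182 passed this limit, against 3.44% of all genes (484 of 14078). In the 1 kb upstream of the TSS alone, which leaves out the body, 59 genes had enough CpGs, and their medians were 88.5%, 51.2% and 80%.

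With like numbers of CpGs in the TSS window, WT medians inside and outside the family were close up to 39 CpGs, and apart from 40 CpGs on. Genes outside the family with 5 to 9, 10 to 19 and 20 to 39 CpGs in the TSS window had WT medians of 88.1%, 90.5% and 89.96%, and their 3aKO medians were 51.1%, 54.3% and 48.6%. The olfactory receptor genes of the same classes (86, 70 and 21 genes) had WT medians of 89.5%, 89.5% and 91.2%, and 3aKO medians of 51.0%, 57.6% and 59.0%. Outside the family, 8893 genes had 40 or more CpGs in the window, with medians of 9.85%, 2.07% and 5.57%, while only 5 olfactory receptor genes had as many, *Olfr94* and *Olfr95* among them, with medians of 82.5%, 33.2% and 76.4%. Of the 13 windows past 20 points in 3bKO ESCs, 10 were among the 86 with 5 to 9 CpGs. Outside the family, 63 of 608 genes with 5 to 9 CpGs were past it.

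**Figure D3:**
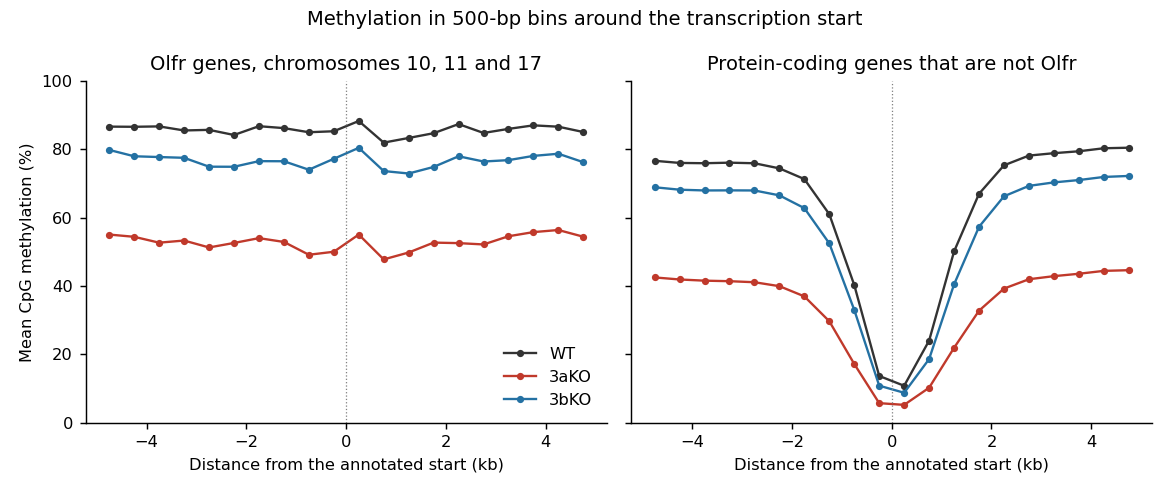
Mean methylation of single CpGs in percent (vertical axis) in 500-bp bins by distance from the annotated start in kb (horizontal axis), for the 198 olfactory receptor genes (left) and for protein-coding genes outside the family (right), with 1 line per genotype. The WT line of the olfactory receptor genes stays between 82.0% and 88.3% across all 20 bins, while that of the other genes falls to 10.8% just after the start.

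Around the start of the olfactory receptor genes the level of methylation varied little. Over 20 bins of 500 bp, from 5 kb before to 5 kb after the start, the mean level of single CpGs stayed between 82.0% and 88.3% in WT, 47.8% and 56.4% in 3aKO, and 72.9% and 80.5% in 3bKO ESCs. The highest bin in WT and 3bKO ESCs was the first 500 bp after the start. The lowest bins followed it, from 500 to 1000 bp in WT and 3aKO and from 1000 to 1500 bp in 3bKO ESCs. Of the 794 CpGs from 500 to 1000 bp, *Olfr94* holds 28 before and 29 after 750 bp. Pooled by reads, these were at 1.28% and 0% in WT and at 0.536% and 0% in 3aKO ESCs. In that bin, olfactory receptor genes of the other chromosomes had 90.1% in WT and 57.9% in 3aKO ESCs, without such a dip. Measured CpGs were denser in the first 500 bp after the start (0.918 per 100 bp) than in the 500 bp before it (0.373 per 100 bp). For 101 of the 198 genes the annotated start is the start codon, so that the true promoter may lie farther upstream. Coding exons, with 1787 CpGs, had mean levels of 85.4% in WT, 52.6% in 3aKO and 78.1% in 3bKO ESCs. The DNA between the genes of a cluster, with 24027 CpGs outside genes, had 85.6%, 56.0% and 76.9%. In the 500 kb on both sides of the clusters, with 94771 CpGs, the means were lower at 75.8%, 43.2% and 68.4%. Unlike the DNA between the genes, these flanks included genes and their promoters. In WT, 14.9% of the flank CpGs were under 20%, against 2.51% of those between the genes. Flanks without genes were not measured, so the values are not a like comparison of DNA inside and outside the clusters. By chromosome, coding exons were above the DNA between the genes in WT on chromosome 10 (88.9% and 86.8%) and chromosome 11 (90.9% and 84.6%). They were below it on chromosome 17 (71.2% and 85.5%), where the CpG-rich *Olfr94* and *Olfr95* lie.

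The 21 other protein-coding genes within the clusters showed levels that differed widely at their TSS windows, as in a pair of genes named after their values were seen. *Mgat1*, an enzyme of N-glycan synthesis, was at 4.17% in WT, 1.01% in 3aKO and 1.24% in 3bKO ESCs. *H2-M2*, a nonclassical major histocompatibility gene of the chromosome 17 cluster, was at 89.5%, 73.3% and 88.3%. The body medians of the other genes within the clusters were 81.1%, 47.8% and 70.0% (20 genes), below those of the olfactory receptor genes around them. These genes were set apart from the family by symbol only. Among them *Gm10310*, not measured in the body, matches *Olfr247* at 100% identity over 100% of the *Olfr247* transcript.

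*Olfr94* and *Olfr95*, neighbours in the large cluster of chromosome 17, were the only measured olfactory receptor bodies below 50% in WT. On the other chromosomes analysed in WT, 0 of 391 measured bodies were this low. *Olfr94* and *Olfr95* are also the members richest in CpGs, with 6.67 and 4.31 CpGs per 100 bp against a median of 0.662 over the 198 genes. The observed over expected CpG ratio was 0.752 in *Olfr94* and 0.528 in *Olfr95*, against a median of 0.141. The stretch of 240 coding bases with the most CpGs of each gene is shown in the direction of transcription (minus strand of mm9), with CpGs in capitals, because these CpGs carry the low values.
*Olfr94* (chr17:37334097-37334336): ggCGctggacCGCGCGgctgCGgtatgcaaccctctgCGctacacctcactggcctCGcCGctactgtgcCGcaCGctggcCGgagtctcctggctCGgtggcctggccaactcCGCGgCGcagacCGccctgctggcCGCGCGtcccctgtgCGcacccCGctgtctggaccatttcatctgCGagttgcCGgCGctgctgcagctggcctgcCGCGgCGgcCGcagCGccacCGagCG
*Olfr95* (chr17:37348346-37348585): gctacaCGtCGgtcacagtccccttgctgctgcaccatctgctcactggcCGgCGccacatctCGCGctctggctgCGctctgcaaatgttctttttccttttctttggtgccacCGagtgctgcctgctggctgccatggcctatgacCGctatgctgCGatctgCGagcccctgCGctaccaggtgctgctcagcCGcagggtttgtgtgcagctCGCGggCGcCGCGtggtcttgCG
The 31 CpGs of the *Olfr94* stretch were at 0.791% in WT, 0% in 3aKO and 0.713% in 3bKO ESCs, at mean depths of 16.3, 14.5 and 13.6 reads. The 19 CpGs of the *Olfr95* stretch were at 32.5% in WT, 2.69% in 3aKO and 14.0% in 3bKO ESCs, at mean depths of 30.6, 27.4 and 21.5 reads.

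The single-exon body of *Olfr94* (chr17:37333653-37334956) was unmethylated in its middle and methylated at its edges in WT. Over all 87 CpGs the level was 12.03% in WT (interval 10.4 to 13.9), 2.45% in 3aKO (1.79 to 3.35) and 11.9% in 3bKO ESCs (10.2 to 13.8). No methylated read was seen at 49 of these CpGs in any genotype, and at 80 of them in 3aKO ESCs. Between 750 and 999 bp from the start, 29 CpGs were at 0% in WT, 0% in 3aKO and 2.21% in 3bKO ESCs. The mean depth over the body was 15.5 reads in WT, below the median of 27.0 over measured bodies.

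The DNA on both sides of *Olfr94* lost far more in 3aKO than in 3bKO ESCs. The 8 CpGs of the 1 kb upstream were at 89.2% in WT (83.6 to 93.1), 18.1% in 3aKO (13.6 to 23.6) and 84.9% in 3bKO ESCs (79.1 to 89.4). The 13 CpGs of the 1 kb downstream were at 86.0%, 37.9% and 72.1%. The next protein-coding gene on that side is *Ubd*, a ubiquitin-like protein gene, whose body was at 93.5%, 59.4% and 90.6%. In WT the level rose within the upstream edge of the gene, to 62.2% in its first 250 bp, and reached 69.4% between 1250 and 1499 bp, around its downstream end. In 3bKO ESCs these values were 51.1% and 39.3%. In 3aKO ESCs they were 15.8% and 0%, and the low levels reached into both flanks.

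*Olfr95* (chr17:37347839-37348812) had partial methylation in WT that was nearly lost in 3aKO ESCs. Its 42 CpGs were at 44.9% in WT (42.2 to 47.6), 4.68% in 3aKO (3.62 to 6.03) and 30.7% in 3bKO ESCs (28.0 to 33.5). The 3 intervals did not overlap. None of the 42 CpGs was without a methylated read in WT, while 24 were in 3aKO and 7 in 3bKO ESCs. The level was 31.6% in WT between 250 and 499 bp from the start, where 17 CpGs lie, and 75% between 750 and 999 bp. A level between 0 and 100% in bulk DNA can come from a mix of cells or alleles or from partial methylation within each, which cannot be told apart here.

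**Figure D4:**
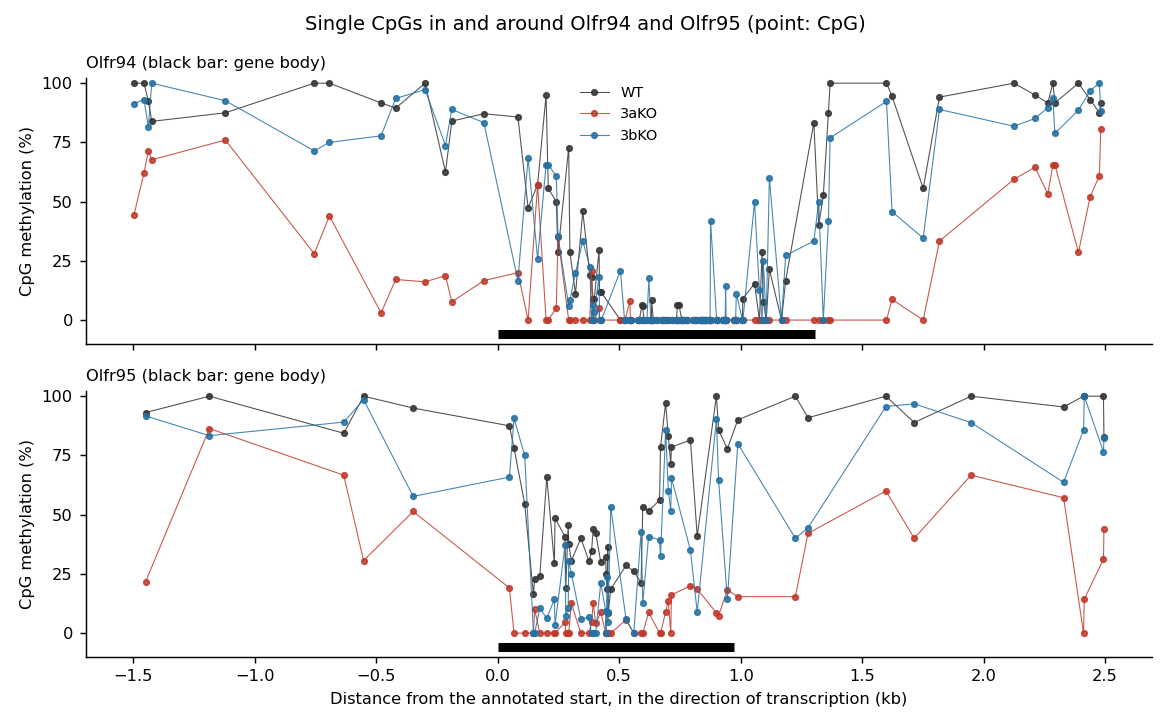
Methylation of single CpGs in percent (vertical axis) by distance from the annotated start in kb, in the direction of transcription (horizontal axis), for *Olfr94* (top) and *Olfr95* (bottom), with 1 line per genotype and the gene body as a black bar. In *Olfr94* most CpGs in the middle of the body lie at or near 0 in all genotypes, and the flanks of 1 kb, each pooled over its CpGs, are at 18.1% upstream and 37.9% downstream in 3aKO, below WT and 3bKO, while single CpGs within the edges of the body vary in order.

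Other CpG-dense olfactory receptor genes were methylated in WT and differed in the KOs. *Olfr179*, *Olfr324* and *Olfr315* on chromosome 11, the next in order of density at 3.10, 3.03 and 3.01 CpGs per 100 bp, were at 80.4%, 91.8% and 93.5% in WT and at 42.7%, 58.5% and 58.2% in 3aKO ESCs. On chromosome 15, *Olfr281* had 4.49 CpGs per 100 bp, more than *Olfr95*, and stood at 94.9% in WT, 72.5% in 3aKO and 94.7% in 3bKO ESCs. *Olfr279* on the same chromosome, with 4.18 CpGs per 100 bp, was at 78.3%, 30.1% and 62.2%. These genes were named after their values were seen. Over the 161 bodies, Spearman's rho between CpG density and level was 0.289 in WT, 0.185 in 3aKO and 0.307 in 3bKO ESCs. Pearson's r was of the other sign (-0.396, -0.267 and -0.247), with *Olfr94* and *Olfr95* at the far end of the density axis. Both describe genes that share libraries and neighbourhoods.

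**Figure D5:**
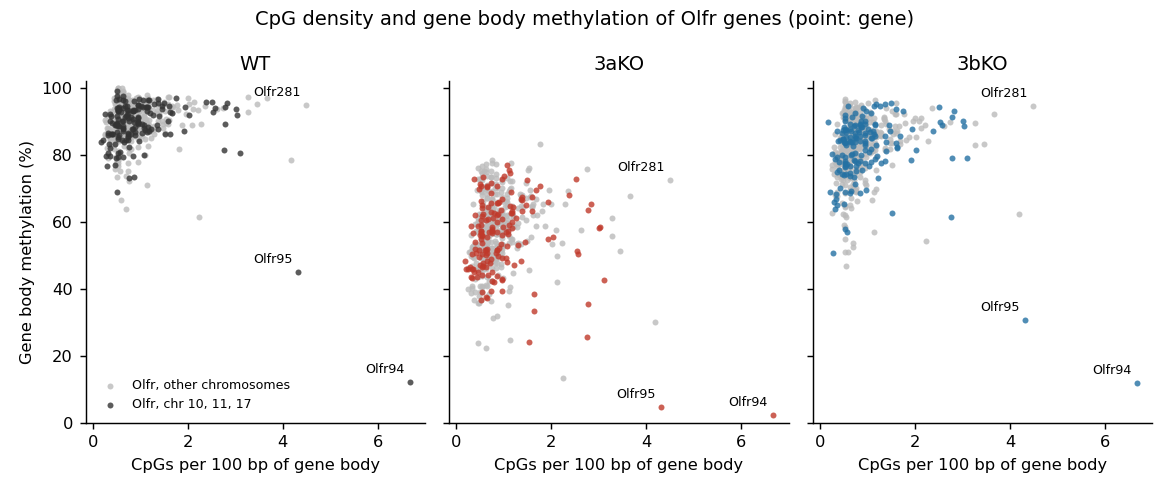
Gene body methylation in percent (vertical axis) against CpGs per 100 bp of gene body (horizontal axis), with 1 panel per genotype and 1 point per gene, in colour for the 161 genes of chromosomes 10, 11 and 17 and in grey for 391 olfactory receptor genes of other chromosomes. *Olfr94* at 6.67 and *Olfr95* at 4.31 CpGs per 100 bp lie low, while of the genes of like density on other chromosomes *Olfr281* stays at 72.5% or above in all genotypes and *Olfr279* falls from 78.3% in WT to 30.1% in 3aKO.

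Among bodies with at least 10 CpGs, the drop in 3aKO ESCs was largest at *Olfr9* and *Olfr1358*, the first genes of the 2 clusters of chromosome 10. *Olfr9* was at 86.2% in WT, 24.1% in 3aKO and 62.8% in 3bKO ESCs, a difference of -62.1 points (-66.9 to -56.5) in 3aKO and -23.5 points (-29.1 to -17.7) in 3bKO ESCs. *Olfr1358* was at 81.5%, 25.6% and 61.4%, with differences of -55.9 and -20.1 points. Both were thus among the 10 bodies past 20 points in 3bKO ESCs. *Olfr763*, next by drop on the chromosome, is a near copy of *Olfr9* (97.5% identity over 96.0% of its transcript), and was at 92.8%, 38.5% and 82.4%. Reads of near copies can be placed on either gene, and 72 of the 198 genes have a copy with at least 95% identity.

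The largest drops on the other chromosomes began with a gene close to those of chromosome 10, followed by smaller ones. On chromosome 11 *Olfr222* was at 89.2% in WT, 35.3% in 3aKO and 79.0% in 3bKO ESCs. *Olfr317* followed at 93.8%, 50.4% and 88.7%, and *Olfr380* at 86.3%, 43.5% and 70.1%. On chromosome 17 *Olfr90*, the first gene of the large cluster, was at 86.3%, 33.4% and 82.0%. *Olfr119* was at 89.9%, 45.1% and 79.3%, and *Olfr93* at 90.9%, 49.2% and 83.6%. *Olfr90* to *Olfr95* lie together at the start of that cluster, but *Olfr94* among them had a drop that was among the smallest of the chromosome.

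Among bodies with at least 10 CpGs, the smallest drops in 3aKO ESCs were found in *Olfr94*, which was low in all genotypes, and in genes that kept most of a high level. *Olfr118* was at 86.8% in WT, 74.4% in 3aKO and 86.2% in 3bKO ESCs, a difference of -12.3 points (-20.1 to -4.93) in 3aKO ESCs. *Olfr109* was at 96.5%, 77.0% and 86.8%, and *Olfr1389* at 94.2%, 75.4% and 87.1%. *Olfr1395* was at 95.7% in WT, 72.9% in 3aKO and 94.2% in 3bKO ESCs. *Olfr1*, with 79.6%, 56.7% and 64.9%, had a small drop from a lower WT level. On chromosome 10 the smallest difference was -27.2 points, in *Olfr796* (87.2%, 60.0% and 95.1%), followed by *Olfr769* (92.4%, 64.4% and 79.8%) and *Olfr825* (86.6%, 56.8% and 80.9%).

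To show what genes with a large and a small drop look like, the densest 240 bases of *Olfr90* (minus strand) and *Olfr1395* (plus strand) are given in the direction of transcription, with CpGs in capitals.
*Olfr90* (chr17:37222558-37222797): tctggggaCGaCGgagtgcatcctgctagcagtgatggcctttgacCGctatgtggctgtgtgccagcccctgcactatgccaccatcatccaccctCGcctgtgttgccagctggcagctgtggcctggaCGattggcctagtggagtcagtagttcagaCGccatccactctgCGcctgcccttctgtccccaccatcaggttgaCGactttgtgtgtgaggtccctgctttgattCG
*Olfr1395* (chr11:48962239-48962478): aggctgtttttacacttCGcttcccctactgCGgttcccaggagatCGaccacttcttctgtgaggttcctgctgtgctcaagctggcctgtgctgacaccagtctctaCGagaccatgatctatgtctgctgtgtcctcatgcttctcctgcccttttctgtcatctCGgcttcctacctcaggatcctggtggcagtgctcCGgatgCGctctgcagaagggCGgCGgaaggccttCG
The 9 CpGs of the *Olfr90* stretch were at 90.9% in WT, 28.8% in 3aKO and 87.6% in 3bKO ESCs. The 10 CpGs of the *Olfr1395* stretch were at 95.5%, 72.1% and 95.7%. The stretches hold like numbers of CpGs and were close in WT, and stood far apart in 3aKO ESCs.

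The largest drops in 3bKO ESCs at the TSS were found in windows with few CpGs. *Olfr1516-ps*, annotated as protein-coding despite its symbol, had a TSS window at 92.4% in WT, 47.3% in 3aKO and 61.6% in 3bKO ESCs, a difference of -30.8 points (-37.7 to -23.5) in 3bKO ESCs. *Olfr790*, in the same cluster, was at 87.5%, 47.3% and 57.1%, and *Olfr794* at 93.3%, 43.3% and 63.5%. *Olfr398* was at 92.4%, 42.2% and 62.8%, and *Olfr110* at 90.7%, 35.6% and 62.2%. All 5 windows held 10 or fewer CpGs. They were lower in 3aKO than in 3bKO ESCs, as were 182 of 182 measured windows of the family and 12676 of 13430 outside it. In the body, the interval lay wholly beyond 20 points in *Olfr790* and *Olfr389*, the latter at 79.7%, 46.5% and 50.6% and named after its values were seen.

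Some bodies had higher levels in 3bKO ESCs than in WT. This held for 19 of 161 bodies, a larger share than over all protein-coding genes, of which 13549 of 13902 were lower. Measured bodies of the family held a median of 10 CpGs, against 201 over all protein-coding genes. Shares at like numbers of CpGs were not compared. Of the other chemoreceptor genes, with a median of 25 CpGs, 99 of 101 bodies were lower. Of the olfactory receptor genes on the other chromosomes, 338 of 391 bodies were lower, close to the 142 of 161 here. The interval lay wholly above 0 in 3 of the 19, and only *Olfr761* exceeded WT by more than 10 points. Neither count was made over all protein-coding genes. *Olfr761* was at 68.8% in WT, 54.8% in 3aKO and 88.2% in 3bKO ESCs, over 5 CpGs with mean depths of 19.2, 18.6 and 17 reads, a difference of 19.5 points (7.50 to 30.6) in 3bKO ESCs. Its TSS window showed 72.5%, 61.5% and 87.8% over 6 CpGs, most of which lie in the body.

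Apart from *Olfr94*, *Olfr95* and *Olfr761*, the lowest TSS windows in WT were those of *Olfr328* (66.0%, 26.4% and 67.6%) and *Olfr330* (74.5%, 51.2% and 82.4%), neighbours on chromosome 11. Both bodies were at the level of the family, with 89.3% and 90.6% in WT. The 6 CpGs upstream of *Olfr328* were at 63.0% in WT, 17.9% in 3aKO and 72.7% in 3bKO ESCs. *Olfr317* in the same cluster had an upstream 1 kb at 26.2%, 4.76% and 25% over 7 CpGs, the lowest of the 59 measured, beside a body at 93.8% in WT.

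Receptors known by function included a body with a low level in 3aKO ESCs. *Olfr124* encodes SR1, a broadly tuned receptor of the septal organ of the nose, and its body was at 91.2% in WT, 42.1% in 3aKO and 87.5% in 3bKO ESCs. Its 3aKO level lay just under the 10th percentile of the family. *Olfr1393*, a receptor also known from the kidney, was at 93.2%, 60.0% and 84.1%, closer to the medians of the family, and has a near copy in *Olfr10*.

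Olfactory receptors carry a conserved Asp-Arg-Tyr (DRY) motif at the inner end of a membrane helix, which takes part in coupling to the G protein. Its arginine codon usually holds a CpG, so that almost every gene offers a CpG at the same place of the protein. The search also took phenylalanine or cysteine in place of the tyrosine, and *Olfr124* has phenylalanine there. The motif was found in 185 of the 198 genes, and its arginine codon was CGC in 122, CGA in 21, CGT in 21, CGG in 11, AGG in 7 and AGA in 3 of them. Windows of 30 coding bases around the codon are shown in the direction of transcription (plus strand), with the CpG of this codon in capitals, for genes of large and small drop and for both receptors known by function.
*Olfr9* (chr10:128427321-128427350): atggcctatgacCGgtatgctgccatctgc
*Olfr1389* (chr11:49244331-49244360): atggcctttgacCGttatgcggctgtgtgc
*Olfr124* (chr17:37942443-37942472): atggcctttgacCGttttgctgccatttgc
*Olfr1393* (chr11:49094003-49094032): atggcttttgacCGctatgttgctgtgtgt
At this single CpG, *Olfr9* was at 61.2% in WT, 4% in 3aKO and 33.3% in 3bKO ESCs, with 49, 25 and 36 reads. *Olfr1389* was at 100%, 100% and 81.5%, with 39, 22 and 27 reads. *Olfr124* was at 82.1%, 28.6% and 88.9%, and *Olfr1393* at 100%, 72.2% and 100%. The arginine codons of these genes are not all the same in their last base, and *Olfr9* and *Olfr1389* were chosen for their large and small drops.

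Over 173 genes with a measured CpG in this codon, the pooled level was 92.8% in WT, 59.6% in 3aKO and 87.5% in 3bKO ESCs. The other 1576 coding CpGs had 86.5%, 53.9% and 79.8%. Without *Olfr94* and *Olfr95*, which hold many of these CpGs, the codon was at 93.3%, 59.9% and 87.8% and the other 1449 CpGs at 90.2%, 57.4% and 83.4%, so that the gap was smaller. The codon was lower than in WT in 165 of 173 genes in 3aKO and in 104 in 3bKO ESCs. Its median over the genes was 96.9% in WT, which left little room for higher values. The same counts were not made for other single CpGs, so they do not set the codon apart. By place in the codon, CpGs over the first and second base (777, including those of the DRY motif) were at 89.8% in WT and 57.4% in 3aKO ESCs. CpGs over the last pair of bases of a codon were at 85.6% and 51.5%, and those that join codons at 84.7% and 52.5%. These values include *Olfr94* and *Olfr95*.

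The share of methylation kept differed by the base after the CpG. With equal weight for each strand of a CpG in the olfactory receptor bodies, CpGs followed by T kept 56.8% of the WT level in 3aKO ESCs, those followed by C 59.6%, by A 62.2% and by G 64.0%. In 3bKO ESCs those followed by A kept the least at 86.9%, followed by T at 89.8%, G at 91.4% and C at 96.1%. Over all CpGs analysed in WT, the order in 3aKO ESCs was the same, with 58.2%, 58.9%, 62.9% and 64.6% for T, C, A and G. In 3bKO ESCs A was again lowest at 89.1% and C highest at 94.7%, while G at 91.7% and T at 92.1% changed places. These orders over all CpGs depended on the weighting. Pooled by reads, CpGs followed by C kept the least in 3aKO ESCs (61.8%) and those followed by A the most (75.3%), and in 3bKO ESCs those followed by G kept the least (91.8%). Within the olfactory receptor bodies, pooling by reads gave 56.7%, 61.3%, 63.2% and 63.9% for T, C, A and G in 3aKO ESCs, in the same order.

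Genes of olfactory signalling and receptor choice, from a list fixed by function, were also lower in body methylation in 3aKO ESCs. Of 26 listed genes 15 were analysed, and 15 of 15 bodies were more than 20 points lower in 3aKO and 0 in 3bKO ESCs, near the 91.6% and 2.29% of all genes. The TSS windows divided the list, and the parts also differed in their number of CpGs. *Rtp1*, *Rtp2* and *Stoml3* held 19, 27 and 22 CpGs in the window, and the other analysed genes held from 64 to 147. *Rtp1* and *Rtp2*, which carry receptors to the cell surface, were at 92.5% and 93.3% in WT and at 62.8% and 62.0% in 3aKO ESCs, and *Stoml3*, a membrane protein of olfactory cilia, was at 93.1% and 54.1%. *Lhx2* and *Ebf1*, transcription factors of olfactory neurons, were at 1.47% and 7.76% in WT, and *Lbr* and *Ldb1*, which act in the nuclear organisation of receptor genes, at 2.94% and 11.6%. *Adcy3* and *Gnal*, the adenylyl cyclase and G protein of odour transduction, were at 16.6% and 28.1% in WT and at 4.25% and 9.52% in 3aKO ESCs. The G protein subunit gene *Gng13* went from 28.8% in WT to 1.24% in 3aKO and 9.51% in 3bKO ESCs. The remaining genes, *Ebf2*, *Emx2*, *Kdm1a*, *Ric8b* and *Slc24a4*, lay between 3.72% and 8.88% in WT.

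Near copies and the reference strain bear on how single genes can be read. Measured bodies with a near copy (57) had medians of 89.1% in WT, 56.8% in 3aKO and 84.1% in 3bKO ESCs, and those without (104) had 90.2%, 56.5% and 83.5%. Median depths were 28.1 reads in WT with and 26.6 without a near copy. A cytosine of the reference that is a thymine in strain 129S4/SvJae would read as unmethylated in every genotype. Of the 2921 measured CpGs in the bodies, 72 (2.46%) were at or below 5% in all genotypes, and 49 of these were in *Olfr94*. On chromosome 10 there were 0 such CpGs, on chromosome 11 there were 10, and on chromosome 17 there were 62. The part of strain differences in these CpGs was not tested.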

How the data were processed

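Whole genome bisulfite data of 3 genotypes were used. Per the labels and the methods of the study, reads were aligned to mm9 with BSMAP and corrected for technical bias with BSeQC, and the authors counted methylated and all reads of each CpG with MOABS. The deposited tables hold these counts, in total and by strand, without normalization, and a methylation ratio, a fraction from 0 to 1 that the authors computed from them. The WT table ends on chromosome 4, and comparisons used the 13 whole chromosomes and the part of chromosome 4 shared by all tables. 1 incomplete row was left out.

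CpGs were joined to the annotation (GENCODE M1, transcript with the most exonic bases) with Python 3.11.15, NumPy 2.4.6, SciPy 1.17.1 and Biopython 1.88. Near copies were found with BLAST 2.17.0 (at least 95% identity over at least 90% of the transcript). Shares have Wilson intervals and differences have Newcombe intervals. Gene calls were tested on simulated data. All sequences were read from the mm9 genome.

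Genes named were, among bodies with at least 10 CpGs, the 3 largest and 3 smallest drops in 3aKO per chromosome, the 5 lowest TSS windows in WT, the 5 largest drops at the TSS in 3bKO, any gene more than 10 points above WT, *Olfr124*, *Olfr1393* and the signalling list. Other genes, such as *Olfr99*, *Olfr279*, *Olfr281*, *Olfr389*, *Mgat1* and *H2-M2*, were named after their values were seen. Genes, lists and tests were chosen with earlier results of these data known. Alternatives covered the minimum of reads and CpGs, weighting, strand, windows, deep or unmethylated CpGs, near copies, chromosomes and the limit for a call.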

Additional observations from a re-analysis of the deposited data

How the results depend on the processing

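No paired analysis was possible because the 3 libraries of each genotype were merged into 1 table, and for the same reason no library could be left out and no spread between replicates is known. The median differences kept their direction and moved by less than the counting error of a gene in all alternatives run. They ranged from -35.2 to -32.0 points (body, 3aKO), -7.57 to -5.67 (body, 3bKO), -38.4 to -31.0 (TSS, 3aKO) and -9.26 to -5.34 (TSS, 3bKO). Counts of genes past the limit moved with the number of genes measured and with the limit. In the main setting they were 150 of 161 bodies and 178 of 182 TSS windows in 3aKO. In 3bKO they were 10 of 161 bodies and 13 of 182 TSS windows. With at least 10 CpGs per gene they were 80 of 85 and 3 of 85 in the body and 95 of 96 and 3 of 96 at the TSS, in 3aKO and 3bKO in turn. Without genes that have a near copy, 3aKO counts were 95 of 104 in the body and 112 of 115 at the TSS. With at least 1 CpG per gene, 17 of 198 bodies passed in 3bKO. With a limit of 10 points, 53 bodies and 67 TSS windows passed in 3bKO. With 30 points, 99 bodies passed in 3aKO, and 0 bodies and 2 TSS windows in 3bKO. With the whole interval beyond 20 points, 117 bodies and 149 TSS windows passed in 3aKO, and 2 bodies and 4 TSS windows passed in 3bKO. Genes have a median of 10 measured CpGs in the body, so that differences of a few points in a single gene were not detectable at this depth. Leaving *Olfr94* and *Olfr95* out of the pooled coding CpGs was chosen after seeing the data.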
